A study of Drosophila melanogaster with 2 samples.

Results

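Of the 1941 peaks of Daughterless-GFP that passed the authors' reproducibility filter, 404 lay at divergent promoter pairs, which is 20.8% of them (95% Wilson interval 19.1 to 22.7). A peak was counted there when its summit was within 500 bp of a start site of a protein-coding gene on the plus strand and also within 500 bp of a start site of a different protein-coding gene on the minus strand, in the Ensembl annotation of the dm6 genome with all transcripts. The rule uses the positions of summits and start sites and no signal, but which genes and what sequence can be found at such pairs depends on it. A further 665 peaks had start sites of 1 strand within reach and are called one-strand peaks here, and the other 872 had none. The divergent pairs thus held 37.8% of the 1069 promoter peaks. The peaks lay at 435 gene pairs and 811 genes.

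A divergent pair is a pair of neighbouring genes on opposite strands whose start sites face away from each other, so that a short stretch of DNA serves both promoters. Such pairs are common in the compact genome of Drosophila and many hold broadly expressed housekeeping genes, whose promoters often carry elements such as that of the factor Dref in place of a TATA box. Daughterless is the class I basic helix-loop-helix (bHLH) protein of the fly. It pairs with tissue-specific bHLH proteins in neurogenesis, sex determination and other processes, and bHLH dimers bind E-boxes, CANNTG in the letters of DNA.

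Chromatin of whole Drosophila melanogaster embryos was immunoprecipitated and the recovered DNA sequenced (ChIP-seq) to locate the tagged protein. The line, named da-GFP in the labels, is transgenic and stably expresses da with GFP fused to its C terminus. Embryos of pooled sexes were 0 to 24 h old, chromatin was sonicated to 200 to 800 bp and the antibody was against GFP. All samples belong to 1 group of 2 biological replicates, numbered 2 and 3, both from the same line. Every tissue and the whole of embryogenesis were thus mixed in each sample. No condition was compared, and the control used in peak calling was not analysed here. Whether signal common to open promoters, rather than the tagged protein, gave a share of these peaks was not tested. The lists hold no reads, so depth is unknown, and all intervals below are 95% intervals that cover counting error over peaks, pairs or genes only. No p-value is given.

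The DNA between the facing start sites is shown for 10 pairs outside chromosome arm 2 right, read 5′ to 3′ on the plus strand in dm6 coordinates from the RefSeq copy of Release 6. The gene on the minus strand starts at the left end and the gene on the plus strand at the right end. The first 4 are the pairs of highest peak signal with a stretch of 30 to 300 bases that no annotated exon overlaps. Of the other members, the next 2 are the strongest that hold the E-box CAGCTG in the stretch, then come 2 with the Dref element TATCGATA. The last 2 hold CAACACTG, a run of letters chosen after its values were seen. Capitals mark every match, on either strand, to CANNTG, TATCGATA, GGTCACAC (the core of the core promoter element named Motif 1), CANCNCTA (a pattern for the core of Motif 7) or CAACACTG. A match is a description of letters and not a bound site.
Art3 to mRpS10, chr3R:15229409-15229664: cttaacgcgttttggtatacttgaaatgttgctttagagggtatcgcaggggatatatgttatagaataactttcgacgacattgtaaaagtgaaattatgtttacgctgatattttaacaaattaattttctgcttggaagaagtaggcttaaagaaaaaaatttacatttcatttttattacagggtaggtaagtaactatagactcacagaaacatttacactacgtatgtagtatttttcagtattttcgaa
Atat to Shc, chr3L:9426759-9427009: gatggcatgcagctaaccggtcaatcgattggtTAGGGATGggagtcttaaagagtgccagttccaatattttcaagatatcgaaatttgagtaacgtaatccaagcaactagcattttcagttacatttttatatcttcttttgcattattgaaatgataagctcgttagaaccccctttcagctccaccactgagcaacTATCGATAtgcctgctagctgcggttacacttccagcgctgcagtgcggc
Tcs5 to CHMP2B, chr3L:5139396-5139618: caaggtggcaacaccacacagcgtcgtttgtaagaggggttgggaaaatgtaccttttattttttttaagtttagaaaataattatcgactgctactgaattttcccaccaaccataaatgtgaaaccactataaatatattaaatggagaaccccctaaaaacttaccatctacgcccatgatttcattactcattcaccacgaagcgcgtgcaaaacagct
RpS27 to Nup37, chr3R:25247515-25247657: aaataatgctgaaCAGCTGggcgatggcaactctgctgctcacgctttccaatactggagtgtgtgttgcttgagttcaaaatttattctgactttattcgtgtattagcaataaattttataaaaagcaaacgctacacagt
Reps to l(2)gd1, chr2L:11106646-11106942: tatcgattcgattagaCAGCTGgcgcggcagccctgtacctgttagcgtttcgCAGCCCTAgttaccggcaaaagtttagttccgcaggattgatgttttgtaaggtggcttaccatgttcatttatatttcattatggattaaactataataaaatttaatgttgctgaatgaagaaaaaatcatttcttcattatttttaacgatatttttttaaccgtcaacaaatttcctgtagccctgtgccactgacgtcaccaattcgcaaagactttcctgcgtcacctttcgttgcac
CG3437 to CG3552, chr3L:9457670-9457911: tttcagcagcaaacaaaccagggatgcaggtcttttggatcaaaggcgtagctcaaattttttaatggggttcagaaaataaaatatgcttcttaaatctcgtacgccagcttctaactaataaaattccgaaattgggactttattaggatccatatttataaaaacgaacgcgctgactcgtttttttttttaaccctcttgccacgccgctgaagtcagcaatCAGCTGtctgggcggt
RpS25 to CG4820, chr3R:11216288-11216534: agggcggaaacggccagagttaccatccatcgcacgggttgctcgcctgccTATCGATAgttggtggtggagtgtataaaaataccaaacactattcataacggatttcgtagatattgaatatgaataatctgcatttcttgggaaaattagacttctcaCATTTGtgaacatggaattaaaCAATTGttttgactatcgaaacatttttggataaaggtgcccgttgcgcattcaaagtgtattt
Ttc19 to Acn, chr2L:19045149-19045354: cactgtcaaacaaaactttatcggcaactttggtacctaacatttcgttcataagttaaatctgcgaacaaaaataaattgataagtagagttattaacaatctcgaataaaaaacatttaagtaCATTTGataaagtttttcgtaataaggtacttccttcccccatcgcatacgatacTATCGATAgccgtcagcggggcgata
alphaCOP to CG13919, chr3L:1645200-1645466: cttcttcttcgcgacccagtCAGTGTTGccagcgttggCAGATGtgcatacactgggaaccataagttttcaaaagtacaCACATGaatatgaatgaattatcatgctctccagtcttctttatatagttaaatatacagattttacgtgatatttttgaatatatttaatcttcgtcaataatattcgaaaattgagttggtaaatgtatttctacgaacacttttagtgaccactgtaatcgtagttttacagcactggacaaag
CG10214 to CG10375, chr3R:23767489-23767711: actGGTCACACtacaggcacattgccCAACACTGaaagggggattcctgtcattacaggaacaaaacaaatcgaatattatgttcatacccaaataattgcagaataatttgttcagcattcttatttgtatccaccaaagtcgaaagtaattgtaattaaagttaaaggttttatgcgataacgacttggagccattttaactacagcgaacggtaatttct

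Of the 4 strongest of these stretches, those at Art3 and mRpS10 and at Tcs5 and CHMP2B held none of these elements. The stretch at RpS27 and Nup37 held 1 CAGCTG, whose centre was 6.5 bp from the summit. That at Atat and Shc held a Dref element and a match to Motif 7, both more than 50 bp from the summit. Distance from the summit varied among the others too. The CAGCTG of the Reps stretch and the TATCGATA of the Ttc19 stretch were more than 50 bp from the summit, as was CAACACTG in both of the last stretches. In the stretches of CG3437 and RpS25 the named element was within 50 bp. The CG10214 stretch also held a Motif 1 match near its left end.

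The strongest divergent peak had a pooled signal of 555 and ranked 8 among all 1941. Signal is the height over control that the authors' caller gave each region, and values of the pooled list and of single replicates are on different scales. Its summit was between mRpS10, a protein of the mitochondrial ribosome, and Art3, an arginine methyltransferase, with 279 in replicate 2 and 278 in replicate 3. The second lay between Ssl1, a subunit of the general factor TFIIH, and Chro, a chromatin protein of polytene interbands, with a pooled signal of 539 and values of 249 and 293 in replicates 2 and 3. Replicate 3 was higher at that pair and the replicates were level at the first. Over all thresholded peaks matched in both lists replicate 3 was higher at 1231 of 1928, with a median log2 ratio of 0.18, so a higher value in replicate 3 is also the usual order of these lists, whose depths are unknown.

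The third lay between Shc, an adaptor of receptor tyrosine kinases, and Atat, a tubulin acetyltransferase, with 171 in replicate 2 and 297 in replicate 3. CenG1A, a GTPase-activating protein for Arf, and mRpS23, another mitochondrial ribosomal protein, shared the fourth, with 197 and 251. At CHMP2B, a subunit of ESCRT-III, and Tcs5 the replicates gave 203 and 221. Replicate 3 was thus higher at each of these 3 pairs.

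The other 7 of the 12 strongest were at CG9147 and Fbw5 (pooled signal 387), CG5098 and CG5757 (366), Nup37, a nucleoporin, and RpS27, a protein of the cytosolic ribosome (352), CG12194 and tank (335), Pal1 and Pdrg1 (331), CG8360 and CG8372 (321), and RpL7, of the cytosolic ribosome, and Ripalpha (310.0). Among the 12 strongest, 9 summits were between the facing start sites, and 2 held CAGCTG within 50 bp of the summit, those at CG5098 and at Nup37. Any E-box, CANNTG, was there in 5 of the 12.

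The heights of divergent and other promoter peaks were similar. At divergent pairs the median pooled signal was 89.5 (quartiles 74.5 and 125.6, range 64.4 to 555), beside 90.3 in one-strand peaks, 86.2 away from start sites and 88.15 over all 1941. In replicate 2 the medians were 44.6 at divergent pairs and 43.6 at one-strand promoters, and in replicate 3 they were 48.0 and 49.1. The quartiles of the classes overlapped in every list. The highest −log10 q that the authors' list gives was shared by 375 of the 404, and the lowest value was 2.88.

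Divergent pairs took a larger share among strong regions than among weak ones. The authors also deposited relaxed lists of 30000 regions, peaks and background together, for the pooled reads and for each replicate. In the pooled list 23.5% of the 200 highest regions were at divergent pairs, 21.0% of the rest of the first 1000 and 20.1% of ranks 1001 to 1941. Below the threshold the share was 15.0% at ranks 1942 to 4000, 8.28% at 4001 to 8000, 4.10% at 8001 to 16000 and 2.41% at 16001 to 30000.

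Replicate 2 alone gave 26.0% for its 200 highest regions and 2.52% for its lowest, and replicate 3 gave 22.5% and 2.43%. One-strand promoters also lost share, but less, from 76 of the 200 highest pooled regions to 16.5% of the lowest. Of the regions at any promoter, divergent pairs therefore made up 38.2% at the top and 12.8% at the bottom. All shares come from the same lists, and no test of the difference between the classes was made.

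**Figure D1:**
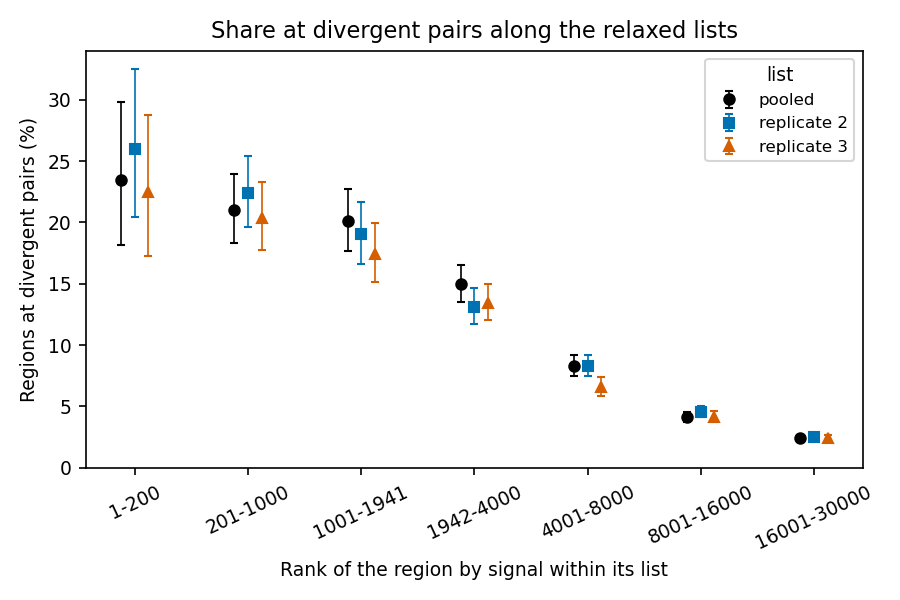
Share of regions at divergent pairs (vertical axis, percent) by rank of signal within the pooled list and the lists of replicates 2 and 3 (horizontal axis), with 95% Wilson intervals as bars. The pooled share is 23.5% in the first bin and 2.41% in the last, and all 3 lists fall in the same order of bins.

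Sequence within reach of start sites on both strands amounted to 1.67 Mb, or 1.25% of the chromosome arms, and held 241 peaks per Mb (exact Poisson interval 218 to 266). The 13.7 Mb within reach of 1 strand held 48.7 per Mb (45.1 to 52.5), and the remaining 118.5 Mb held 7.36 per Mb (6.88 to 7.86). The highest 1941 regions of each replicate gave 245 and 222 per Mb for both strands, in replicates 2 and 3, and 48.5 and 50.7 for 1 strand. Both replicates kept the order of the 3 kinds of sequence.

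Positions within reach of both strands also lie closer to a start site, so the densities were set side by side at matched distances, a step chosen after seeing the data. Within 50 bp of the nearest start site the density was 349.8 peaks per Mb (296 to 411) at divergent pairs and 96.9 (81.6 to 114) at one-strand promoters. Over 50 to 100 bp it was 386 (324 to 457, from 134 peaks) and 83.5 (from 118 peaks), and over 100 to 200 bp it was 223 (183 to 269) and 62.3 (53.4 to 72.4). In each of these 3 bins the intervals did not overlap, and both replicates had the higher density at divergent pairs.

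Farther out, the intervals of both classes overlapped. Over 200 to 300 bp the densities were 54.1 per Mb (29.6 to 90.7) at divergent pairs and 40.6 (33.4 to 48.9) at one-strand promoters, from 14 and 110 peaks. Over 300 to 500 bp the order was the reverse. Only 1 divergent peak was left there, in 0.164 Mb (6.11 per Mb, 0.15 to 34.1). One-strand promoters had 124 peaks in 5.33 Mb (23.3 per Mb, 19.4 to 27.8). Expression of the genes was not measured, so the part of promoter activity in these densities was not tested.

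**Figure D2:**
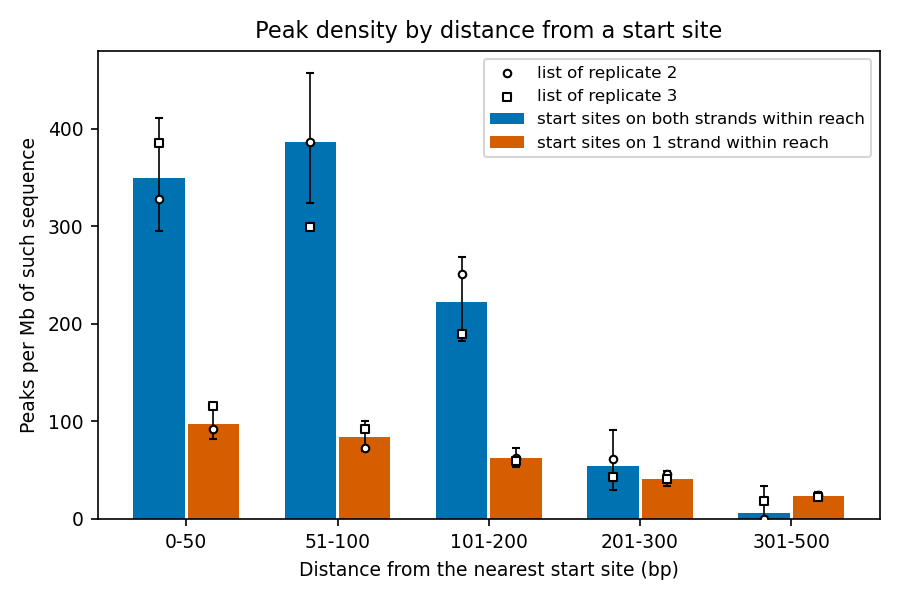
Thresholded peaks per Mb of sequence (vertical axis) by distance from the nearest start site in bp (horizontal axis), for sequence within 500 bp of start sites on both strands or on 1 strand, with exact Poisson 95% intervals as bars and the highest 1941 regions of each replicate as open symbols. Bars for both strands are 349.8, 386 and 223 per Mb in the first 3 bins, all above those for 1 strand at 96.9, 83.5 and 62.3.

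Seen from the annotation, most divergent pairs held no peak. Of 2720 annotated gene pairs with start sites at most 1000 bp apart, 435 had a thresholded summit within reach of both genes, or 16.0% (14.7 to 17.4). Of the 5141 genes in such pairs, 15.8% were at such a summit. With the highest regions of replicates 2 and 3 the share of pairs was 16.1% and 14.7%. One summit counted for 21 pairs, since the annotation lists trans-spliced exons of mod(mdg4), an insulator and chromatin protein, as separate genes under names such as pre-mod(mdg4)-Y. Without those 21 pairs, a step chosen after seeing the data, 15.3% of 2699 held a peak.

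The share of pairs with a peak was highest where the facing start sites were 200 to 300 bp apart. There it was 27.4% of 529 pairs (23.8 to 31.4), with 27.6% in replicate 2 and 23.1% in replicate 3. It was 20.0% at distances up to 100 bp, 16.7% at 100 to 200 bp and 21.6% at 300 to 400 bp, or 15.0% and 18.7% for the last 2 without the mod(mdg4) pairs. The share was 10.1% at 400 to 500 bp and 6.18% at 500 to 700 bp. Of 306 pairs 700 to 1000 bp apart none held a peak, which allows up to 0.98%. The stretch in which a summit can count shrinks as the start sites move apart, so the low values at wide pairs follow in part from the rule. Median signal moved little with the spacing, from 85.8 to 95.6 over the bins of head-to-head pairs.

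Of the pairs on each arm, 16.1% held a peak on 2L, 15.9% on 2R, 17.2% on 3L and 18.9% on 3R, the last 16.4% without mod(mdg4). On the X chromosome 41 of 410 pairs did (interval 7.46% to 13.3%), and on chromosome 4 none of 11, which allows up to 27.3%. The X interval just overlapped those of 2L (13.1 to 19.5) and 2R (13.1 to 19.1) and lay below those of 3L and 3R. No test of the difference between arms was made.

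Most summits sat in the stretch between the promoters. Of 404, 396 were at head-to-head pairs, in which the minus-strand start site is to the left, and 8 at pairs whose transcripts overlap. The summit was between the nearest start sites of the pair at 329 peaks, 81.4% of all (77.4 to 84.9), and at 78.0% and 80.5% of divergent regions in the lists of replicates 3 and 2. With the outermost start site of each gene alone the share was 72.2%. A place upstream of the nearer start site is not particular to divergent pairs. It was found at 83.2% of divergent peaks and at 515 of 665 one-strand peaks (77.4%). Of the 67 head-to-head summits outside, 31 were past the plus-strand start site and 36 past the minus-strand one, by a median of 34 bp. The facing start sites were a median of 266.5 bp apart (quartiles 179 and 347).

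The nearer start site was a median of 70 bp away (quartiles 33 and 110) and the farther 196 bp. The nearer one was on the plus strand at 214 peaks and on the minus strand at 190, a plus share of 53.0% (48.1 to 57.8). Among 226 pairs with start sites 200 to 400 bp apart, 85 summits (37.6%) were in the middle one of 3 equal parts of the stretch, 123 (54.4%) in both parts next to the start sites together and 18 (7.96%) outside. Shearing to 200 to 800 bp limits how finely these positions can be read.

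**Figure D3:**
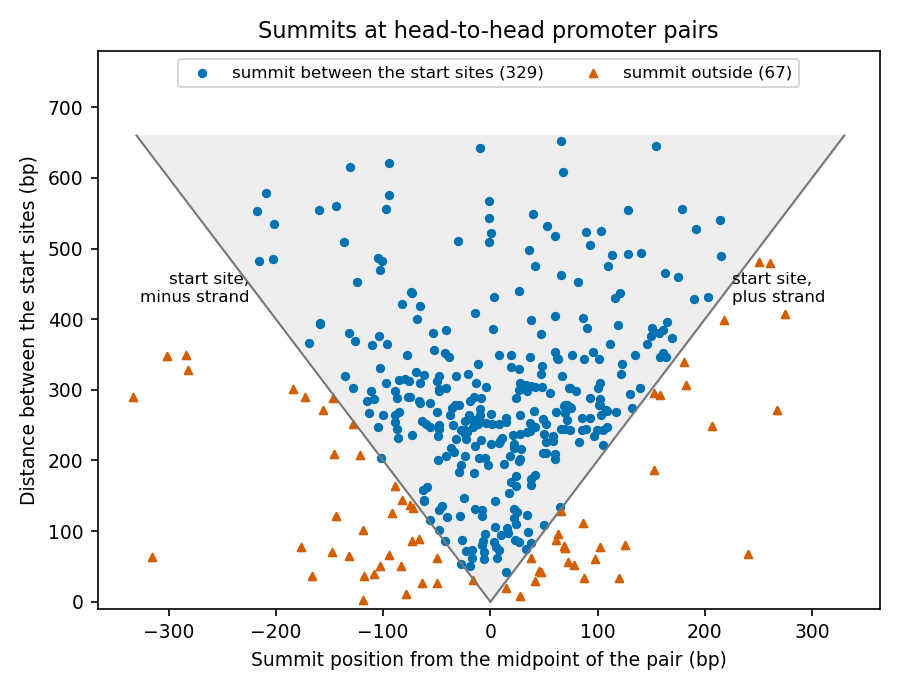
Distance between the facing start sites in bp (vertical axis) against the position of the summit from the midpoint of the pair in bp (horizontal axis) for the 396 peaks at head-to-head pairs; the grey wedge is the stretch between the start sites. The 329 summits between the start sites fill the wedge, and the 67 outside are mostly at close pairs.

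The limit of 500 bp fell in a thin part of the distribution. The members just inside it were CG8788 and alc, with the farther start site 494 bp away and a signal of 80.0, mthl14 and E(bx) at 499 bp (83.7), and RpL31 and CG12929 at 500 bp (78.3). Just outside were CG1416 and step at 503 bp (87.1), hang and AnxB11 at 525 bp (65.4), and CG31751 and Mst36Fa at 529 bp (111). In all, 27 members had the farther start site over 400 bp away, and 17 peaks fell between 500 and 600 bp. The rule counts each peak once, and 15 gene pairs held more than 1 peak.

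Genes of the cytosolic ribosome had the highest share at divergent peaks among the 19 gene lists looked at, which were chosen by symbol with earlier results of these data known, and the share of vacuolar ATPase genes was close to theirs. Of their 93 genes 56 are in annotated divergent pairs, and 25 of those 56 were at a divergent peak, or 44.6% (32.4 to 57.6), against the 15.8% of all paired genes. The lists of replicates 2 and 3 gave 24 and 23 genes. Median signal over their 27 peaks was 137, against 89.5 over all divergent peaks. With any promoter peak counted, 35 of the 56 paired genes (62.5%) and 17 of the 37 genes outside pairs (45.9%) had one, and no test of that difference was made.

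At these pairs the summit was usually at the ribosomal gene's own end. It was nearer the ribosomal start site at 23 of 27, a median of 51 bp from it and 220 bp from the partner's. RpS27 had its summit 10 bp away, RpL7 27 bp, RpL34b 49 bp, and RpL41, at NaCP60E, 76 bp. Signals at these were 168 and 185 at RpS27 in replicates 2 and 3, 129 and 179 at RpL7, 98.7 and 125.5 at RpL34b, and 92.6 and 113 at RpL41. Replicate 3 was the higher at all 4.

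At the other 4 the partner's start site was nearer, and those named here were chosen after their values were seen. Among them, at RpLP0-like, which is in the list through its symbol alone, the summit was 21 bp from 14-3-3zeta. At RpS25 and RpL34b a second, weaker peak was at the partner's end. At RpS25 the summits were 19 and 233 bp from its start site, with pooled signals of 152 and 114. The weaker summit was 15 bp from the start site of CG4820. Whether each promoter gave a summit of its own was not tested, and shearing limits how finely the positions can be read. The Dref element TATCGATA was within 50 bp of 6 of the 27 summits, and CAGCTG of 3. Over all 404 divergent summits the shares were 6.19% for TATCGATA and 10.6% for CAGCTG, so the count of CAGCTG is near its usual share.

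At mitochondrial ribosomal protein genes the partner's start site was the nearer at 9 of 14 peaks. Each divergent peak has a nearer and a farther gene, so over all such peaks both orders are equally common, and 9 of 14 is not far from that. Of 59 in pairs, 13 (22.0%, 13.4 to 34.1) were at a divergent peak, with 15 and 12 in the lists of replicates 2 and 3. The median signal was 81.7. After mRpS10 and mRpS23 the strongest were mRpL23, with 129 in replicate 2 and 111 in replicate 3, and mRpL53, at AGO1 of the microRNA pathway, with 50.4 and 96.1. None of the 16 unpaired genes had a promoter peak, which allows up to 18.8%. Of all unpaired genes 5.43% had one, so none among 16 is not unusual. No test of the difference between these ribosomal lists was made.

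Vacuolar ATPase genes, for the proton pump of endomembranes, had 6 of 14 paired genes at a divergent peak (42.9%, 21.4 to 67.4), but 3 in the list of replicate 2 and 6 in that of replicate 3. The partner's start site was nearer at 6 of 7 peaks, a small count, where an even share holds over all divergent peaks. Vha100-2, with Vti1b, had the highest signal (75.5 in replicate 2 and 63.1 in replicate 3), followed by Vha16-5 (42.8 and 59.1) and Vha55 (23.1 and 59.0). Replicate 3 was higher at Vha55 and Vha16-5 and lower at Vha100-2. None of the 20 unpaired genes was at a promoter peak, which allows up to 15.0%. Of all unpaired genes 5.43% were at one, so none among 20 is not unusual.

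Genes of insulator and promoter architecture proteins had 7 of 18 paired genes at a divergent peak (38.9%, 20.3 to 61.4), 5 and 7 in the lists of replicates 2 and 3. These were Chro, Nelf-E and Nelf-A of the complex that pauses RNA polymerase II, the insulator protein Cp190, Dref, its partner pzg, and E(bx), a subunit of the NURF remodeller. Nelf-E shared its peak with RpL14 (86.5 in replicate 2 and 114.8 in replicate 3), and Dref with RpL13 (39.6 and 64.0). The summit was 39 bp from RpL14 and 15 bp from RpL13, so at both pairs the ribosomal start site was the nearer.

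Proteasome genes had 7 of 26 paired genes at a divergent peak (26.9%, 13.7 to 46.1), led by Rpn5, a lid subunit, with 60.6 in replicate 2 and 50.03 in replicate 3. Aminoacyl-tRNA synthetase genes had 5 of 23 (21.7%), led by SerRS with 75.9 and 72.2. Respiratory chain and ATP synthase genes had 9 of 45 (20.0%), led by ND-MWFE of complex I with 86.6 and 102. Nuclear pore genes had 4 of 21 (19.0%), cell cycle genes 3 of 17, DNA replication and repair genes 5 of 29 and vesicle traffic genes 11 of 64 (17.2%). All of these intervals held the 15.8% of paired genes.

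The remaining lists were near or below that level. RNA polymerase and general transcription genes had 9 of 56 (16.1%), led by Polr2H with 68.1 in replicate 2 and 98.1 in replicate 3. Translation factor genes had 4 of 27 (14.8%), chaperone genes 2 of 15, and splicing and snRNP genes 3 of 30. Chemosensory receptor genes had none of 27, which allows up to 11.1%, and cuticle protein genes none of 13, which allows up to 23.1%.

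The bHLH and Notch lists have few paired genes, and their shares were near the 15.8% of all paired genes. Like the other lists, both were chosen by symbol, so further genes of these kinds can be at divergent peaks without being counted here. Of the 44 genes in the bHLH list 11 are in annotated pairs, and 2 (18.2%, 5.14 to 47.7) were at a divergent peak. These were crp with 56.0 in replicate 2 and 45.9 in replicate 3, and bigmax with 27.0 and 64.6. In both the summit was nearer the bHLH gene. In the list of Notch pathway and Bearded genes 8 are paired and 1 (12.5%, 2.24 to 47.1) was at such a peak. That was aph-1, a subunit of gamma-secretase, with 52.4 and 47.3. Neither da itself nor a gene of the E(spl) complex was at a divergent peak. A gene outside annotated pairs cannot be at one. Whether these genes are in such pairs is not given here, so nothing is drawn from their absence.

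Over all genes, those in pairs were more often at a promoter peak than those outside. With any thresholded summit within 500 bp counted, 964 of 5141 paired genes (18.8%) and 478 of 8804 unpaired genes (5.43%) had one. A paired gene can be counted through a summit at its partner, which raises its share. Genes at divergent peaks had a median span of 2429 bp, against 2265 bp in paired genes without a peak, 2166 bp in all protein-coding genes and 5931 bp in unpaired genes at promoter peaks.

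**Figure D4:**
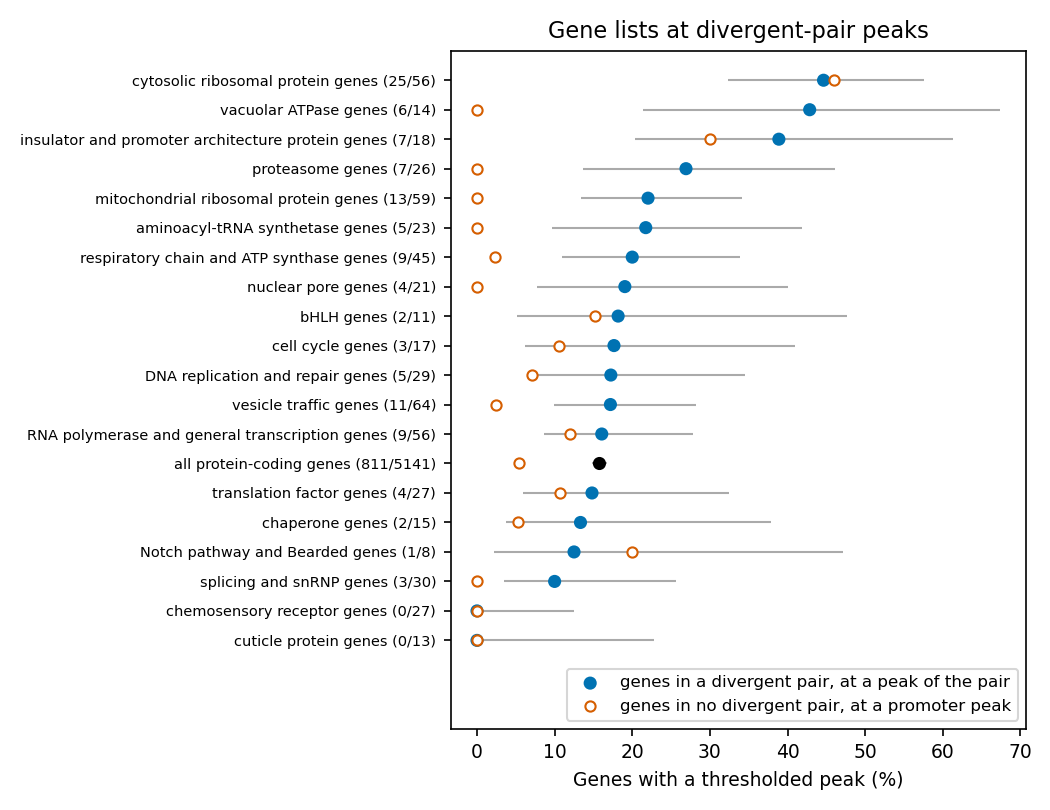
Share of the genes of each list with a thresholded peak (horizontal axis, percent), for genes in annotated divergent pairs at a peak of the pair (filled, with 95% Wilson intervals and counts beside the name) and genes outside pairs at any promoter peak (open). Cytosolic ribosomal protein genes are highest at 44.6% and 45.9%, and all protein-coding genes, in black, are at 15.8% and 5.43%.

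The E-box CAGCTG was at 43 of the 404 summits, 10.6% (8.00 to 14.0) of windows that reach 50 bp to each side of the summit, searched on both strands as were all elements. Windows of that length 300 bp to the left and right of the same summits held it in 5.69% and 3.96%, and 5.48% of windows of the same length upstream of all promoters, whose near edge is 51 bp before each start site, did so. The farther start site was a median of 196 bp from the summit. Many flank windows, for this and the other elements, therefore lie past the start sites and inside the genes. The windows at summits that held it while the flank did not numbered 42, against 22 and 15 with the reverse on the left and right. One-strand peaks had it at 10.7% and peaks away from start sites at 10.3%. The share was 10.7% and 10.5% in the lists of replicates 2 and 3, so the classes and replicates differed by less than their intervals.

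At the midpoint, this E-box was about as common in pairs with a peak as in those without. Windows of the same length at the midpoint of head-to-head pairs held it in 6.89% of pairs with a peak (4.84 to 9.72) and 6.75% of those without (5.77 to 7.87). Among the 43 summits, the E-box nearest the summit lay a median of 18.5 bp from it, and it was between the start sites at 25. Peaks with it had a median signal of 84.9, against 90.0 in the other 361. The 6 strongest were at CG5098 and CG5757 (366), Nup37 and RpS27 (352), CG3552 and CG3437 (208), RanGAP, the GTPase-activating protein of Ran, and Hs2st (196), CG5916 and Mic26-27 (170), and RpS16 and CG4294 (161).

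Any E-box, CANNTG, which includes CAGCTG and the other 9 forms, was at 36.6% of the summits (32.1 to 41.4), below the 44.5% of one-strand peaks (40.8 to 48.3) and near the 39.9% and 40.3% of the flanks. Upstream of all promoters it was 37.5%. Among the 10 forms CATATG was the rarest at the summits, and its interval makes no allowance for a choice among forms. The form CATATG was at 1 of 404 summits (0.248%, 0.0437 to 1.39) but at 3.22% and 4.21% of the flanks, 3.76% of one-strand peaks and 2.86% of all promoters. Midpoints of pairs with and without a peak had it at 1.66% and 3.19%. The lists of replicates 2 and 3 had it at 5 of 410 and 4 of 372. The mean GC content of the summit windows was 36.7% ± 9.54 (SD over 404 windows), against 46.0% and 46.4% in the flanks and 41.1% at one-strand peaks, and its part in these shares was not tested.

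The Dref element TATCGATA, which contains the CGATA of the insulator protein BEAF-32, was at 25 summits, 6.19% (4.23 to 8.98). Flanks had it at 0.99% and 1.73%, one-strand peaks at 3.61%, and all promoters at 2.22%. None of the 872 peaks away from start sites held it, which allows up to 0.344%. Pairs without a peak had it at 4.97% of their midpoints, close to the 4.51% of pairs with one. It lay between the start sites at 23 of 25. CGATA, within the Dref element or outside it, was at 29.2% of summits, 13.9% and 14.4% of flanks and 19.4% of all promoters. Midpoints of pairs with and without a peak had it at 23.3% and 23.5%.

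Motif 7, CANCNCTA, was at 46 summits, 11.4% (8.65 to 14.9), against 4.95% and 3.96% in the flanks, 7.22% at one-strand peaks and 3.84% at all promoters. At the midpoints it was 9.50% (7.06 to 12.7) of pairs with a peak and 6.02% (5.10 to 7.09) of pairs without, intervals that just overlapped. Peaks with it had a median signal of 78.7 and those without 90.8. The strongest was the peak between RpL14 and Nelf-E.

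Motif 1, GGTCACAC, was at 7 summits, 1.73% (0.84 to 3.53), and at 2.93% and 2.69% of divergent regions in the lists of replicates 2 and 3. Midpoints of pairs without a peak had it at 3.14% and all promoters at 1.22%. In divergent regions at ranks 1942 to 4000 of the pooled list it was at 6.17% (3.98 to 9.43). The strongest of the 7 was at RpL7, with 129 in replicate 2 and 179 in replicate 3. The letters TATAAA were at 19.1% of summits, 12.5% of one-strand peaks, 16.2% of all promoters and 23.6% of midpoints of pairs without a peak. The GAGA element, GAGAG, was at 7.43%, against 12.9% of one-strand peaks and 15.9% of all promoters, but 7.70% of pairs without a peak had it too.

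**Figure D5:**
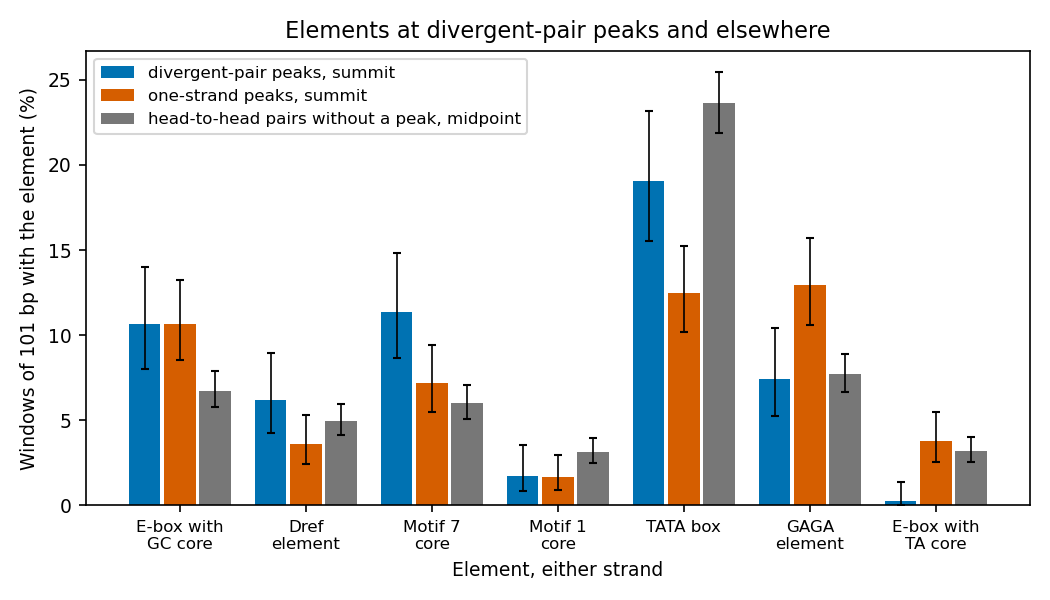
Share of windows reaching 50 bp to each side that hold an element on either strand (vertical axis, percent) at the summits of the 404 divergent-pair peaks, at the summits of 665 one-strand peaks and at the midpoints of 2194 head-to-head pairs without a peak, with 95% Wilson intervals. The E-box with GC core is at 10.6%, 10.7% and 6.75%. The E-box with TA core, the rarest of the 10 forms at divergent-pair summits, is at 0.248%, 3.76% and 3.19%.

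Among all runs of 8 letters, CAACACTG had the largest difference between the summits and the midpoints of pairs without a peak. It was at 27 summits, 6.68%, and 1.87% of those midpoints, values that chose it and so support nothing. Its first 7 letters match those of CANCNCTA and the last does not, so the same letters never count as both. Divergent regions at ranks 1942 to 4000 can lie at pairs that served as the comparison in that choice, so they are no independent check. They held it at 21 of 308, 6.82% (4.50 to 10.2), while one-strand regions of those ranks had 2.47% (1.55 to 3.93) and all promoters 0.83%. In the flanks of the 404 it was at 0.248% and 0.99%.

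Peaks with CAACACTG were of modest height, with a median signal of 77.6 against 90.8 in the others and a highest value of 149, at mRpL53 and AGO1. Of the 27, 10 also held CAGCTG in the window, which was at 10.6% of all 404 summits. Among them were the peaks at Vha36-1, Vha44, mRpS2, mRpL52 and ND-24, named after their values were seen. The others were at Usp32 and Rab8, Targ3 and park, tai and CG9586, Dp and Fsn, and SRPK and dup. Of all 404 windows, 215 (53.2%) held none of CANNTG, TATCGATA, GGTCACAC and CANCNCTA.

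The replicates ranked the divergent peaks in broadly similar but not equal order. Within 200 bp of the summit, 402 of the 404 had a region in the relaxed list of replicate 2 and 403 in that of replicate 3. Among the 1941 highest regions, 336 (83.2%) were found in replicate 2, 329 (81.4%) in replicate 3 and 268 (66.3%, 61.6 to 70.8) in both. One-strand peaks had 78.6%, 85.0% and 65.1%. Across the 401 peaks found in both relaxed lists, Pearson's r of log2 signal was 0.65 and Spearman's rho 0.51, as a description over peaks of 1 chosen list, which share their libraries.

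The balance between replicates differed slightly by class. The log2 ratio of replicate 3 to replicate 2 had a median of 0.08 at divergent peaks (SD 0.58) and 0.20 at one-strand peaks. It was 0.21 at peaks away from start sites and 0.18 over all. Divergent regions in the list of replicate 2 had a mean GC content of 35.3% and those of replicate 3 had 38.8%, but these are different sets of regions. The part of base composition in the balance was not tested.

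The largest differences in favour of replicate 3 were at Sac1, a phosphoinositide phosphatase, and Psf1, a GINS subunit (10.9 in replicate 2 and 53.5 in replicate 3, log2 ratio 2.29), at msk, an importin, and Arp3 of the actin-nucleating Arp2/3 complex (26.0 and 92.3, 1.83), and at Nelf-A and CG3337 (15.4 and 54.5, 1.82). In favour of replicate 2, a large difference was at Grip71, of the gamma-tubulin ring complex, and Faf2 (76.9 and 19.4, log2 ratio -1.99). The largest in that direction, at a second peak between Pal1 and Pdrg1 (122.6 and 27.4, -2.16), is uncertain. Its region in replicate 2 is also the nearest one to the stronger peak of the same pair.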

How the data were processed

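ChIP-seq region lists of da-GFP embryos (replicates 2 and 3) were used as deposited in dm6. Per the deposited notes and the columns, the authors gave each region a signal, its height over a control, and a −log10 q value. Signal ranked and described peaks within a list and was set side by side between the replicates' lists, without rescaling and with depth unknown. The −log10 q was only reported. The thresholded list equals the 1941 highest regions of the pooled list. The sources used here name no aligner, caller or threshold. The dm3 lists were not used.

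Start sites came from Ensembl release 115 (BDGP6.54), all transcripts of 13945 protein-coding genes on arms 2L, 2R, 3L, 3R, 4 and X. Each peak's pair was the plus and minus start sites of different genes with the least summed distance. Sequence came from the RefSeq copy of Release 6. Windows reaching 50 bp to each side were searched for 20 motifs on both strands. Replicate regions were matched within 200 bp, and each replicate alone was represented by its 1941 highest regions. Python 3.11.15, pandas 2.3.3 and scipy 1.17.1 were used, and the code was tested on simulated data.

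The peaks, gene lists and motifs were chosen with earlier results of these data known. Genes named are those of the 12 strongest members, of the 6 strongest with CAGCTG, of up to 4 members per list, of da, E(spl), bHLH and insulator genes, of the 3 largest replicate differences each way and of 3 peaks on each side of the distance limit, and some genes within this rule are not reported here. Shares have 95% Wilson intervals and densities exact Poisson ones. A share of 0 is given with the limit that 3 counts would make.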

Additional observations from a re-analysis of the deposited data

How the results depend on the processing

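Of 61 alternative values for 10 results, 39 stayed within the interval of the reported value and 22 moved outside it. The results are shares and medians, so a change of direction was not assessed. The share of peaks at divergent pairs was 14.6% within 250 bp, 26.8% within 1000 bp and 19.1% with the outermost start site of each gene alone, and the summit was between the start sites at 76.5% within 1000 bp and at 72.2% with outermost start sites. The 1000 highest peaks gave 9.04% of pairs and a median signal of 121. Windows reaching 25 and 100 bp to each side gave 5.94% and 19.6% for CAGCTG, 21.5% and 63.6% for CANNTG, 3.47% and 10.6% for TATCGATA, and 0.50% and 4.46% for GGTCACAC, since longer windows hold more letters. For CAACACTG, chosen after seeing the data, they gave 2.23% and 10.4%. Found in both replicates were 59.4% with summits within 100 bp, 46.5% within 50 bp and 99.3% in the whole relaxed lists.

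From each replicate alone, lowest and highest values were 19.2% and 21.1% of peaks, 14.7% and 16.1% of pairs, 78.0% and 80.5% of summits between start sites, 10.5% and 10.7% with CAGCTG, 37.6% and 37.9% with CANNTG, 5.37% and 7.53% with TATCGATA, 2.69% and 2.93% with GGTCACAC, and 44.5 and 49.8 for median signal, on the scale of single lists. No paired analysis was possible because there was 1 group. Depth, which is unknown, limits which weak pairs could be called.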

Other observations

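Non-coding genes were left out of the rule. A start site of a non-coding gene was within reach of 8 divergent peaks, and 40 of the 665 one-strand peaks (6.02%) had one on the strand opposite their protein-coding start site. No annotated pair with both genes in the same one of the 19 lists held a divergent peak. The number of such annotated pairs is not given here, so nothing is drawn from that count. Of the genes at divergent peaks 28.1% (25.1 to 31.3) are named only by a CG number, against 35.1% (33.8 to 36.4) of all genes in annotated pairs.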
